A study of Mus musculus with 56 samples.

Results

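Hox genes encode homeodomain transcription factors, and their expression was followed here in the lung, liver and forestomach of chrysene-exposed mice. The members were all genes whose symbol is Hox, a letter from a to d and a number. There were 39 of them among the 20018 genes named on the array. All 39 had 1 or 2 probes, and in each tissue the probe with the highest mean Cy5 signal was used. Hoxa genes (11 members) lie together on chromosome 6, Hoxb genes (10) on chromosome 11, Hoxc genes (9) on chromosome 15 and Hoxd genes (9) on chromosome 2.

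Male Muta™Mouse of 14 weeks, a transgenic mouse strain used to score mutations in a bacterial reporter gene, received daily gavage over 28 days. The vehicle group (D0) had olive oil, and the others had chrysene, a polycyclic aromatic hydrocarbon, dissolved in it. Daily doses per kg of body weight were 17.5 mg in D1, 50 mg in D2 and 150 mg in D3, and mice were killed 72 hours after the final gavage. The same 19 mice provided the tissues, with 5, 5, 3 and 5 lungs and with 5, 5, 4 and 5 livers and forestomachs in D0, D1, D2 and D3. Each array held Cy5-labelled RNA of 1 whole tissue and a Cy3-labelled universal mouse reference RNA, a pool from cell lines, so every value is the log2 ratio of tissue to reference. All mice, controls included, carried the transgene and received olive oil. There was no untreated group, no female and no other strain.

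In the embryo, Hox genes are switched on in the order in which they lie in their clusters, those with low numbers towards the head and those with high numbers towards the tail. Genes with the same number in different clusters are paralogs. The combination of Hox genes in a tissue's mesenchyme is retained into adult life as a record of position, and Polycomb and Trithorax proteins maintain the silent and active states. Hox proteins bind DNA with Pbx and Meis cofactors, and retinoic acid is a well known inducer of the genes at the low-numbered end. Below, paralogs 1 to 3 are called anterior, 4 to 8 central and 9 to 13 posterior.

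Cy5 was well above background, by the scanner software's flag, on 47.6% to 55.2% of the probes in lung, 33.2% to 45.2% in liver and 18.1% to 50.2% in forestomach. The forestomach range followed the slide. Slides 1 and 2 gave 18.1% to 33.4%, with 5 to 14 Hox genes above background per array, and slide 3 gave 39.0% to 50.2%, with 17 to 22. Each tissue lay on 3 slides of its own, so slide and tissue cannot be told apart. Marker genes stood highest in the tissue of their label. The mean log2 ratio of 7 alveolar type 2 cell markers was 5.63 to 6.09 in lung and at most 0.53 elsewhere, that of 8 hepatocyte markers was 6.90 to 7.44 in liver and at most 3.35 elsewhere, and that of 12 keratinocyte markers was 3.47 to 5.63 in forestomach. Replicates are separate mice, and P values measure the spread between arrays of a group, in which mice and slides are mixed. Contrasts between tissues used a common spread from all 56 arrays, with the tissues of a mouse treated as independent. Dose comparisons used the arrays of the tissue alone. The lungs of mice 17 and 19, both D3, stood apart from the other 16 lungs. They held 10 of 10 skeletal muscle markers above background with a mean log2 ratio of 5.24 to 5.46, against -0.94 to -0.18 in the others, and a keratinocyte mean of 2.91 to 3.29 against -0.32 to -0.19. The lung comparisons at D3, the lung dose trend and the D3 comparisons of lung with the other tissues are given with and without them.

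The number of Hox genes above background differed among the tissues. Lung arrays held 15 to 21 (median 16), forestomach arrays 5 to 22 (median 13) and liver arrays 1 to 11 (median 5). In lung, 14 of the 39 were above background on all 18 arrays, among them Hoxa2 to Hoxa7, Hoxb2 to Hoxb7 and Hoxc13. In forestomach, 5 were above background on all 19 arrays, Hoxa7, Hoxb6, Hoxc4, Hoxc5 and Hoxc6, and in liver none was, although Hoxa7 reached 18 and Hoxb4 and Hoxb5 17 of 19 arrays. The forestomach counts are those most limited by signal, because 12 of its 19 arrays lay on the dim slides. These are bulk samples, so fewer cells of a type and less RNA per cell cannot be told apart.

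**Figure D1:**
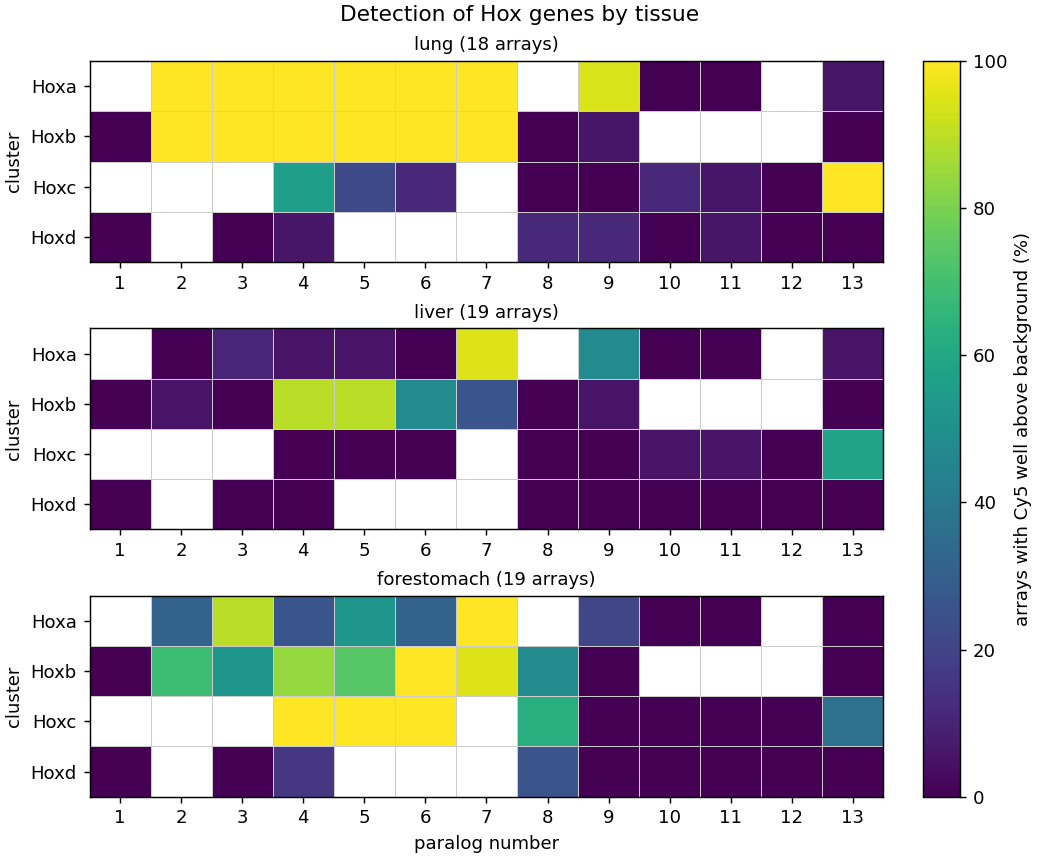
Percentage of arrays (colour) on which Cy5 of the Hox genes drawn was well above background, by cluster (rows) and paralog number (columns), in lung (18 arrays), liver (19) and forestomach (19). In lung the yellow squares run from Hoxa2 to Hoxa7 and from Hoxb2 to Hoxb7, and in forestomach Hoxa7, Hoxb6 and Hoxc4 to Hoxc6 are at 100%.

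The detected genes were grouped by position in the cluster. At least 3 arrays of lung held 5 of the 8 anterior, 10 of the 15 central and 2 of the 16 posterior members above background. In forestomach the counts were 5 of 8, 15 of 15 and 2 of 16, and in liver 1 of 8, 5 of 15 and 2 of 16. The posterior members were Hoxa9 and Hoxc13 in each tissue. The Hoxd cluster stood lowest, with 0 of 9 members on at least 3 arrays in lung and in liver, and with Hoxd4 (3 arrays) and Hoxd8 (5 arrays) in forestomach. A member that did not reach background may still be expressed below what these arrays measure. The Cy3 reference was not well above background on any of the 56 arrays for Hoxb1, Hoxd1, Hoxd12 and Hoxd13, so their ratios carry no level in either channel.

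The boundary at the posterior end differed by cluster. In lung, Hoxb7 was above background on 18 of 18 arrays and Hoxb8, the next gene of the cluster, on 0 of 18. In forestomach, Hoxb8 was above background on 9 of 19 arrays and Hoxb9 on 0 of 19. The Hoxa series ended alike in the 3 tissues, with Hoxa9 on 17 of 18 lung, 9 of 19 liver and 4 of 19 forestomach arrays and with Hoxa10 on 0 arrays of any tissue. Hoxa9 was close to background, with a median Cy5 signal of 102 intensity units in lung, 90 in liver and 75 in forestomach. A second probe of Hoxa9 was above background on no array. In the Hoxc cluster, forestomach held Hoxc8 on 12 of 19 arrays and Hoxc9 on 0, although the reference signal of Hoxc9 was well above background. Hoxc13, which in the skin acts in hair and nail formation, was above background on 18 lung, 11 liver and 7 forestomach arrays, but its Cy5 signal was at most 139 intensity units, where probes at background lay near 70.

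The first comparison asked how Hox genes differed between lung and liver in vehicle mice. A gene counted as called where limma's adjusted P was at most 0.05 and the fold change at least 1.5. Of 17 members tested, 9 were higher in lung and 2 lower. Among all probes tested 46% were called, 24.9% as higher and 21.1% as lower, so calls are common between these tissues. Those higher in lung were Hoxa2, Hoxa3, Hoxa5, Hoxa7, Hoxb2, Hoxb3, Hoxb4, Hoxb5 and Hoxb6. Their log2 differences ran from 0.78 to 2.77. Of the 17 tested, 8 were above background on at least 3 arrays of both tissues (4 called higher in lung and 1 lower). The other 9 passed the filter only through lung, so their direction was partly set by it (5 called higher and 1 lower). Under median centring 12 were called higher and 0 lower, with 41.5% and 5.49% of all probes.

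Hoxa5, which is required for lung and airway development, was measured in every D0 lung and in no D0 liver. In D0 lungs its log2 ratio was 1.74, 2.44, 1.78, 1.78 and 1.69 in mice 1 to 5 in turn, whereas in D0 livers it lay between -1.10 and -0.64 with Cy5 not well above background in any of the 5. Every lung lay above every liver. The fitted log2 difference was 2.77 (SE 0.15, limma adjusted P 1.0e-21), and because the livers give only a limit, Hoxa5 was at least 5.83-fold higher in lung. Such limits are on normalized Cy5 signal, open to dye bias without dye swaps, and are given only where they do not exceed the fold of the ratios. In D0 forestomachs the values were -0.16, -0.07, 0.05, -0.10 and 0.12 in mice 1 to 5, above all livers and below all lungs, and the lung minus forestomach difference was 1.92 (SE 0.15, adjusted P 2.65e-15). Over all doses the 18 lungs ran from 1.61 to 2.44 and did not overlap with the 19 forestomachs (-0.22 to 0.82).

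Hoxb5, another regulator of lung branching and also of enteric neurons, was also higher in lung than in liver. The D0 lungs gave 2.06, 2.61, 2.15, 2.14 and 1.59 in mice 1 to 5, and the D0 livers -0.26, -0.42, -0.35, -0.30 and -0.37, all measured above background. The lungs were all higher, with no overlap and a difference of 2.45 (SE 0.22, adjusted P 6.63e-14). In D0 forestomachs Hoxb5 was 0.06, 0.68, -0.29, 0.28 and 0.60 in mice 1 to 5, below every lung and overlapping with the livers. Lung minus forestomach was 1.84 (SE 0.22, adjusted P 6.69e-10).

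Hoxb4, a central member also known from blood stem cells, and Hoxa3, an anterior member that patterns the pharyngeal region, followed the same order of tissues. Hoxb4 in D0 was 0.61 to 0.84 in lung (median 0.79), -0.69 to -0.12 in forestomach (median -0.25) and -1.38 to -0.85 in liver (median -1.08), with no overlap between any of the 3 tissues. Hoxa3 was 0.25 to 0.60 in lung, -0.65 to -0.11 in forestomach and -1.90 to -1.31 in liver, also with no overlap. Lung minus liver was 1.85 (SE 0.15, adjusted P 8.33e-16) for Hoxb4 and 2.04 (SE 0.18, adjusted P 1.76e-14) for Hoxa3. Only 1 of 5 D0 livers had Hoxa3 above background, and 2 of 5 D0 forestomachs had Hoxb4 there, so these ratios are compressed at the low end.

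**Figure D2:**
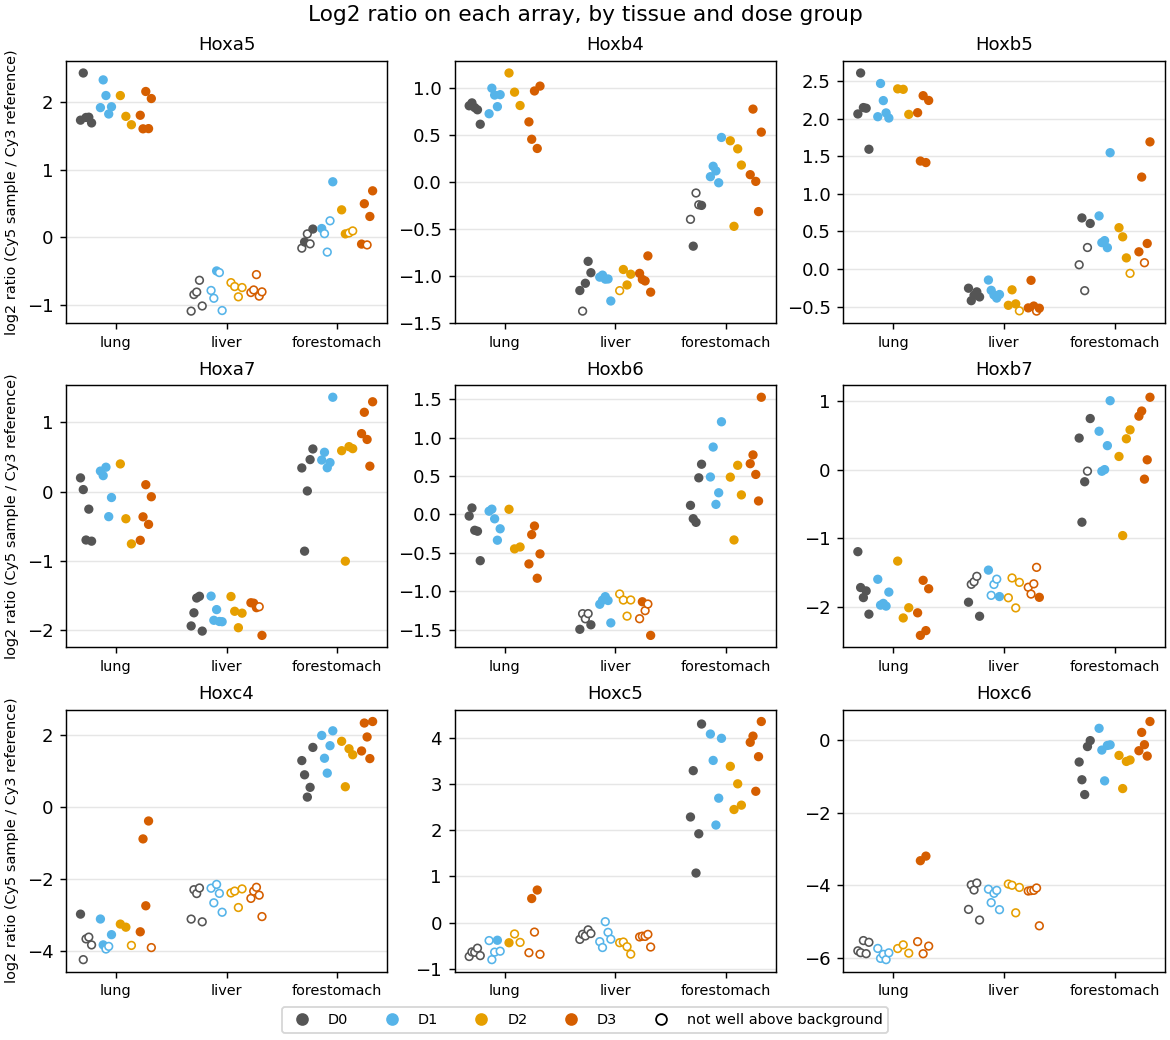
Log2 ratio of sample to reference on each of the 56 arrays for 9 Hox genes, by tissue (horizontal axis) and dose group (colour); open circles are arrays on which Cy5 was not well above background. Hoxa5, Hoxb4 and Hoxb5 are highest in lung, Hoxc4, Hoxc5 and Hoxc6 are highest in forestomach, and the lungs of 2 D3 mice lie above the other lungs for Hoxc4, Hoxc5 and Hoxc6.

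The remaining anterior and central genes were higher in lung than in liver by 0.90 (Hoxa2), 1.46 (Hoxa7), 1.35 (Hoxb2), 0.78 (Hoxb3) and 1.18 (Hoxb6) on the log2 scale, with adjusted P from 5.31e-12 to 1.22e-05. Hoxa2 and Hoxb3 were not above background in any D0 liver and gave limits of at least 1.83-fold and at least 1.55-fold. Hoxb3 was measured by 2 probes, which gave 0.78 and 0.77. Hoxa6 and Hoxb7 had differences of 0.19 and 0.06 and did not pass (adjusted P 0.249 and 0.849), although under median centring Hoxb7 was at 1.28 with an adjusted P of 0.0193 and was called. Hoxa4 passed on adjusted P but not on fold change, at 0.43.

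Of the 2 members called lower in lung than in liver, neither held its direction under every scaling. Hoxc4 had a difference of -1.01 (SE 0.38, adjusted P 0.0166), although Cy5 was above background in 1 of 5 D0 lungs and in 0 of 5 D0 livers, and no fold is given. Hoxc13 had -0.67 (SE 0.18, adjusted P 0.000929). Under median centring of the arrays these became 0.35 and 0.38. The ratio of a gene at background also moved with the slide, since Hoxc4 in D0 livers was -2.26 to -2.41 on slides 1 and 2 and -3.12 and -3.20 on slide 3, with Cy5 at background on all 5 arrays.

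Forestomach was compared with liver next. Of 22 members tested, 13 were higher in forestomach and 0 were lower by limma, against 22% and 19% of all probes (41% in either direction). Of the 22, 14 passed the filter on dim probes only through forestomach, which favours a higher value there, and 8 of these were called. Of the 8 members that passed in both tissues, 5 were called. With median centring 4 were called higher and 0 lower, against 4.79% and 17.1% of all probes, and the median of all probes tested was -0.18 in place of 0.04. The 4 called there were Hoxc4, Hoxc5, Hoxc6 and Hoxc8, with differences of 2.48, 2.00, 2.45 and 1.11 and adjusted P of 0.0045, 0.00165, 0.0051 and 0.000802.

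Hoxc4, Hoxc5 and Hoxc6 are neighbours in the Hoxc cluster, and they stood highest in forestomach on every array of the series. Hoxc4 in D0 forestomachs was 1.29, 0.89, 0.27, 0.54 and 1.65 in mice 1 to 5, against -3.20 to -2.26 in D0 livers and -4.25 to -2.98 in D0 lungs. Hoxc5 was 2.28, 3.28, 1.07, 1.92 and 4.29 in D0 forestomachs, against -0.37 to -0.16 in livers and -0.74 to -0.56 in lungs. Hoxc6 was -0.61, -1.10, -1.51, -0.19 and -0.03, against -4.95 to -3.93 and -5.87 to -5.51. For each of the 3 genes, every D0 forestomach was above every D0 liver and lung.

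The fitted differences were large. Forestomach minus liver was 3.59 (SE 0.38, adjusted P 1.48e-11) for Hoxc4, 2.83 (SE 0.34, adjusted P 3.17e-10) for Hoxc5 and 3.64 (SE 0.34, adjusted P 2.28e-13) for Hoxc6. No D0 liver was above background for any of them, so these differences rest on livers at background. For Hoxc5 the limit was at least 6.26-fold higher in forestomach, and for Hoxc4 and Hoxc6 the limit on Cy5 signal exceeded the fold of the ratios and is not given. Against lung, where 0 of 5 D0 arrays measured Hoxc5 and Hoxc6, they were at least 8.08-fold and at least 23.5-fold higher in forestomach on normalized Cy5 signal, and Hoxc4, measured in 1 of 5 D0 lungs, had a log2 difference of -4.60 for lung minus forestomach (SE 0.38, adjusted P 1.04e-14). These sizes depended on the scaling. Under median centring lung minus forestomach was -2.13 for Hoxc4, -2.0 for Hoxc5 and -2.44 for Hoxc6 (adjusted P 0.00521, 0.000479 and 0.00165), and forestomach minus liver for Hoxc5 was 2.00. For Hoxc5 and Hoxc6 these are smaller than the limits on Cy5 signal.

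Of these genes, Hoxc5 split with the slide in D0 forestomachs, whereas Hoxc4 and Hoxc6 overlapped between slides. Hoxc5 in D0 was 4.29 and 3.28 in the mice on slide 3 and 2.28, 1.07 and 1.92 in those on slides 1 and 2, with no overlap. Hoxc8, which lies on the posterior side of Hoxc6, followed the same split, with 2.22 and 1.58 on slide 3 and 0.46, 0.03 and 0.31 on the other slides, where Cy5 was not above background. Hoxc8 was at least 2.11-fold higher in forestomach than in liver and at least 2.30-fold higher than in lung, each time with 2 of 5 forestomachs measured.

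Hoxa7, Hoxb6 and Hoxb7 were also higher in forestomach than in liver. Hoxa7, a central gene of the thoracic region, was 0.34, -0.86, 0.01, 0.46 and 0.61 in D0 forestomachs of mice 1 to 5 and -2.01 to -1.51 in D0 livers, all above background. The difference was 1.86 (SE 0.25, adjusted P 8.81e-09), and under median centring it was 0.99 with an adjusted P of 0.151. Hoxb6 gave 1.59 (SE 0.18, adjusted P 1.8e-10) and Hoxb7 1.84 (SE 0.24, adjusted P 4.23e-09), and under median centring these were 0.88 and 1.13 (adjusted P 0.14 and 0.0701) and were not called. The other called members were Hoxa3 (1.28), Hoxa5 (0.85), Hoxb2 (0.76), Hoxb3 (0.61), Hoxb4 (0.75) and Hoxb5 (0.61), all of which were also higher in lung than in liver. Cy5 was above background in 3 of 5 D0 forestomachs for Hoxa3 and in 2 of 5 for each of the others. In D0 livers it was so in 5 of 5 for Hoxb5, 4 of 5 for Hoxb4, 1 of 5 for Hoxa3 and Hoxb2, and none for Hoxa5 and Hoxb3. Hoxa3, Hoxa5, Hoxb2 and Hoxb3 passed the filter only through forestomach.

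Lung and forestomach were then compared directly. Of 22 members tested, 5 were higher in lung and 10 were higher in forestomach, against 19.3% and 18.2% of all probes (37.6% in either direction). Under median centring the split was reversed, with 10 higher in lung and 4 higher in forestomach, against 56.1% and 2.52% of all probes. Hoxb8, Hoxc6, Hoxc8, Hoxd4 and Hoxd8 passed the filter only through forestomach, and they are 5 of the 10 called higher there. Higher in lung were Hoxa3 (0.76), Hoxa5 (1.92), Hoxb2 (0.60), Hoxb4 (1.10) and Hoxb5 (1.84), and they were so under each of the 4 scalings. Higher in forestomach were Hoxc4, Hoxc5, Hoxc6 and Hoxc8 under each scaling, and Hoxa9, Hoxb7, Hoxb8, Hoxc13, Hoxd4 and Hoxd8 under the authors' scaling. Of these latter 6, all except Hoxd4 turned to a difference above 0 under median centring, where they lay between 0.02 and 0.41. That scaling moved the median of all probes tested from 0.0040 to 0.98, so all 6 stayed below it. Hoxd4 was below background in every D0 array of both tissues, so its call rests on no measured level. Hoxa9 and Hoxc13 were above background in 5 of 5 D0 lungs, but in only 1 of 5 and 2 of 5 D0 forestomachs, the tissue called higher. Hoxd8 was above background in 1 of 5 D0 forestomachs and in no D0 lung.

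Hoxb7, a central gene, had the largest of these scaling-dependent differences. It was 0.47, -0.76, -0.17, -0.02 and 0.75 in D0 forestomachs of mice 1 to 5 and -1.19, -1.72, -1.87, -1.77 and -2.11 in the lungs of the same mice. Each forestomach exceeded each lung, and the difference was -1.78 (SE 0.24, adjusted P 1.16e-08), or 0.15 under median centring. Its neighbour Hoxb8 was above background in 2 of 5 D0 forestomachs and in 0 of 5 D0 lungs, with a difference of -0.62. Nearby genes of the Hoxb cluster thus had opposite signs under the authors' scaling, with Hoxb4 and Hoxb5 higher in lung and Hoxb7 higher in forestomach. Under median centring Hoxb7 turned. Hoxb8 had the sign of Hoxb7 and turned as well, but it passed the filter only through forestomach, which favours that sign. Hoxb6, which lies between Hoxb5 and Hoxb7, had -0.41 (SE 0.18, adjusted P 0.0504), but under median centring it turned to 1.26 (adjusted P 0.013) and was called higher in lung.

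**Figure D3:**
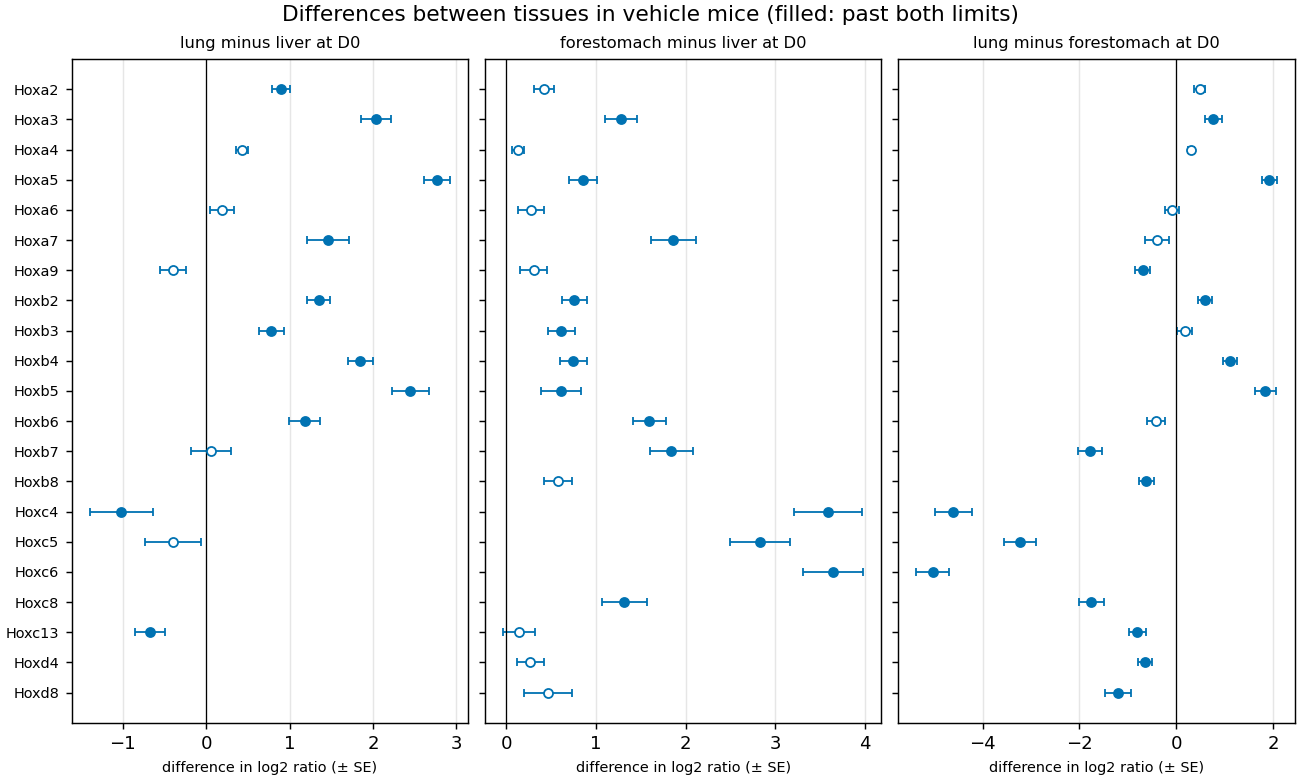
Difference in log2 ratio between tissues in D0 mice (horizontal axis, error bars are the SE of limma's fit) for the Hox genes drawn (vertical axis, in cluster order); filled circles passed both the adjusted P and the fold limit. Hoxa5 and Hoxb5 lie on the lung side, at 2.77 and 2.45 against liver, and Hoxc4, Hoxc5 and Hoxc6 lie on the forestomach side, at -4.60, -3.23 and -5.03 in the right panel, where lungs were at background for Hoxc5 and Hoxc6.

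Upstream sequences are shown for genes with different tissue patterns. Hoxa2, Hoxa5 and Hoxb4 were called higher in lung than in liver, and Hoxb8 and Hoxc4 higher in forestomach than in lung. Hoxa2 was not called between lung and forestomach (0.48), and the lung minus forestomach difference of Hoxb8 turned to 0.06 under median centring. Of the 39 members, 22 matched a promoter in the RefSeq table for GRCm38.p6, with 24 start sites. The 250 bases before the start are printed 5′ to 3′ on the gene's strand: Hoxa2 at chr6:52164832-52165081 (minus strand), Hoxa5 at chr6:52204588-52204837 (minus strand), Hoxb4 at chr11:96318017-96318266 (plus strand), Hoxb8 at chr11:96281655-96281904 (plus strand) and Hoxc4 at chr15:103034145-103034394 (plus strand). Capitals mark matches, on either strand, to TGATNNAT (a Hox and Pbx motif), TAATTA (a homeodomain motif) or AGGTCA (a retinoic acid receptor half-site).
Hoxa2 upstream: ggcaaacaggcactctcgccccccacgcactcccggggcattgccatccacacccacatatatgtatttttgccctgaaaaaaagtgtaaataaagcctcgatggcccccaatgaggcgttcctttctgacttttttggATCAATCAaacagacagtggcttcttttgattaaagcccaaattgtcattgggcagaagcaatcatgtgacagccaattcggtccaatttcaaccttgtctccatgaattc
Hoxa5 upstream: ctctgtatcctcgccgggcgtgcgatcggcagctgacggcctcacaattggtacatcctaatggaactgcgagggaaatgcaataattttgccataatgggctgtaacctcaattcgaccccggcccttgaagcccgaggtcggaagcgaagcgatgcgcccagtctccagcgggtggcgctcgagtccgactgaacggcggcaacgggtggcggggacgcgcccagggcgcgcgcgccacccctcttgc
Hoxb4 upstream: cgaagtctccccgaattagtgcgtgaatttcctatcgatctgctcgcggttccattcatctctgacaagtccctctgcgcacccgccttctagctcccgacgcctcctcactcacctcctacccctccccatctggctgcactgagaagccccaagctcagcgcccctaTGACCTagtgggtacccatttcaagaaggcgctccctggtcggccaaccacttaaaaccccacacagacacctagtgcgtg
Hoxb8 upstream: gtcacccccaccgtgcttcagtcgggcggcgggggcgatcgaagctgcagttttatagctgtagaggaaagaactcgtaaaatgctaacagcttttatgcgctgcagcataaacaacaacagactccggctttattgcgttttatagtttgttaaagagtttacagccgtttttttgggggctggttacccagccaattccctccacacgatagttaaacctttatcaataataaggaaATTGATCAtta
Hoxc4 upstream: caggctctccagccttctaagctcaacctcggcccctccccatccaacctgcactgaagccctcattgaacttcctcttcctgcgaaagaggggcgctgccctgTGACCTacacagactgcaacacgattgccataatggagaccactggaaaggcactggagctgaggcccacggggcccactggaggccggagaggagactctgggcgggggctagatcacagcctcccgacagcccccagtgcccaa

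TGATNNAT occurred in 4 of the 24 Hox windows, among them Hoxa2 and Hoxb8, against 7.68% of the 32851 upstream windows of the same length. TAATTA occurred in 2 of 24 against 4.84%, and AGGTCA in 6 of 24, among them Hoxb4 and Hoxc4, against 14% of all windows. Hoxa5 held none of these letters in its window. A match is a description of letters and not of a site in use. Motifs were found upstream of genes called higher in lung than in liver and of genes called higher in forestomach than in lung.

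The cofactors of Hox proteins were examined next. Of the 9 Pbx, Meis and Pknox genes, all tested, 5 were higher and 0 lower in lung than in liver, 3 and 0 in forestomach than in liver, and 2 and 1 in lung than in forestomach. Among all probes 46%, 41% and 37.6% were called in either direction, and 9 genes are too few to set the list apart from them. Their median differences were 0.91, 0.19 and 0.02, against 0.03, 0.04 and 0.0040 over all probes. Meis1, which binds DNA with Hox and Pbx proteins, was 1.33 ± 0.24 (SD, n = 5) in D0 lung, 1.29 ± 0.25 in forestomach and -1.36 ± 0.30 in liver, and differed from liver by 2.69 (adjusted P 7.54e-19) and 2.65 (adjusted P 2.34e-18). Pbx3 gave 2.22 and 2.18 in the same contrasts. Pknox2 was higher in lung than in liver by 2.31 and than in forestomach by 2.04, and Pbx2 by 1.15 and 0.96. Meis2 had a lung minus forestomach difference of -0.94 (adjusted P 5.38e-05), which turned to 1.09 (adjusted P 0.0613) under median centring. That scaling also left Meis1 and Pbx3 in forestomach against liver at 1.44 and 1.26 (adjusted P 0.104 and 0.0895), not called.

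Among the 18 Polycomb and Trithorax genes tested, 4 were higher and 1 lower in lung than in liver, 2 and 0 in forestomach than in liver, and 3 and 2 in lung than in forestomach, with medians of 0.29, 0.18 and 0.09. The shares called are below the 46%, 41% and 37.6% of all probes. Phc2, a Polycomb complex 1 subunit measured on every D0 array, was higher in lung by 1.71 (SE 0.13, adjusted P 9.52e-17) against liver and 1.46 (SE 0.13, adjusted P 5.81e-14) against forestomach. Its paralog Phc1 was higher than in liver by 0.73 in lung and 0.81 in forestomach, and under median centring the latter was 0.43 and was not called. Ezh1 and Ezh2 are the alternative methyltransferases of Polycomb complex 2. Ezh1 was higher in lung by 1.71 against liver and 1.15 against forestomach. Ezh2, above background in 2 of 5 D0 forestomachs, had 1.01 for forestomach minus liver and -1.25 for lung minus forestomach, and under median centring these were 0.12, not called, and 0.99 (adjusted P 0.0142), called higher in lung. Cbx2, another Polycomb complex 1 subunit, was at -1.35 for lung minus liver and -1.26 for lung minus forestomach, and under median centring at 0.04 and 0.45, where neither was called. Phc2 and Ezh1 were called higher in lung in both contrasts under each of the 4 scalings.

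Of the genes of retinoic acid metabolism, its receptors and Cdx factors, 15 were tested in lung against liver (5 higher, 5 lower), 16 in forestomach against liver (5 and 5) and 15 in lung against forestomach (6 and 5), with medians of 0.27, -0.22 and 0.02. Among all probes 46%, 41% and 37.6% were called. Aldh1a2, a retinoic acid synthesizing enzyme, was called higher in lung and in forestomach than in liver (adjusted P 5.66e-07 and 8.39e-05, the latter 0.104 under median centring), and no fold is given because it was not above background in any D0 liver. Cyp26a1, which degrades retinoic acid, was above background in 5 of 5 D0 livers and in no D0 lung or forestomach, and was at least 3.46-fold higher in liver than in lung and at least 3.21-fold higher than in forestomach on normalized Cy5 signal. Under median centring the log2 differences were -1.64 for lung minus liver and -1.29 for forestomach minus liver, smaller than these limits. Aldh1a1, another synthesizing enzyme, was measured on every D0 array and had -2.55 for forestomach minus liver and 2.28 for lung minus forestomach. Crabp2, a retinoic acid binding protein, was higher in forestomach than in liver by 4.30 (SE 0.50) and gave -5.49 (SE 0.50) for lung minus forestomach.

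Other factors of regional identity were also counted. In lung against liver 11 of 24 tested were higher and 8 lower, in forestomach against liver 6 of 27 and 8, and in lung against forestomach 12 of 28 and 10, with medians of 0.27, 0.12 and 0.25. Among all probes 46%, 41% and 37.6% were called. Nkx2-1, the lung and thyroid homeodomain factor, was above background in 5 of 5 D0 lungs and in no D0 liver. Tbx4, a T-box factor of lung mesenchyme, was at least 22.5-fold higher in lung than in liver, where it was not above background. Pitx1 was above background in 5 of 5 D0 forestomachs and in no D0 liver or lung. Of the genes and noncoding RNAs next to the clusters, 10 of 20 were on the array and 8 were tested, with 4 higher and 2 lower in lung than in liver, 2 and 0 in forestomach than in liver, and 2 and 3 in lung than in forestomach. Their medians were 0.44, 0.38 and -0.38, and 8 genes are few to set against the 46%, 41% and 37.6% of all probes. Hnrnpa1, a splicing factor beside the Hoxc cluster, was higher than in liver by 1.59 in lung and 2.01 in forestomach, the latter 0.71 and not called under median centring. Skap1, beside the Hoxb cluster, was higher in lung by 1.80 against liver and 1.09 against forestomach.

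The dose comparisons asked whether chrysene changed Hox expression within a tissue. No member was called by limma at D1, D2 or D3, nor in the dose trend, in any of the 3 tissues. The methods' Fs statistic, run on D1, D2 and D3, called 0 as well, and no gene of the cofactor, Polycomb, retinoic acid, regional or neighbour lists was called by limma at any dose. Among all probes the share called at D3 was 0.127% in lung, 0.00728% in forestomach and 0% in liver, so few probes of any kind were called. At D1 and D2 it was 0% in each tissue, and in the trend it was 0.169% in lung, 0.04% in forestomach and 0% in liver. Counting members by an unadjusted P no higher than 0.05, D3 had 3 of 17 in lung, 0 of 8 in liver and 8 of 22 in forestomach, against 16.2%, 4.79% and 9.24% of all probes. D1 had 1, 1 and 2 (5.88%, 3.61% and 4.17% of all probes in lung, liver and forestomach), D2 had 1, 2 and 1 (6.12%, 3.8% and 7.52%), and the trend had 4, 0 and 4 (17.3%, 5.43% and 9.18%). Leaving out 1 mouse at a time moved these low counts. At D1 it gave 0 to 2 in lung (0 without mouse 5, 2 without mouse 1 or 2), 0 to 1 in liver (0 without mouse 1, 5, 6, 7, 8 or 9) and 0 to 5 in forestomach (0 without mouse 2 or 10, 1 without mouse 3, 4, 6 or 9, 5 without mouse 5). At D2 it gave 1 in lung throughout, 1 to 2 in liver (1 without mouse 1, 11, 12 or 15) and 0 to 2 in forestomach (0 without mouse 1, 2, 11, 13 or 15, 2 without mouse 12). In liver it gave 0 to 1 at D3 and in the trend, with 1 without mouse 17. It gave 3 to 6 members in the lung trend and 1 to 9 in the forestomach trend, with 1 without mouse 17 or mouse 20, 2 without mouse 1, 2, 3, 8 or 9 and 9 without mouse 10.

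In forestomach, 19 of the 22 tested members were above 0 at D3 minus D0, against 49.7% of all probes, and the median log2 difference was 0.45 against -0.0015. The 8 with an unadjusted P of at most 0.05 were Hoxa7, Hoxb2, Hoxb3, Hoxb4, Hoxb8, Hoxc4, Hoxc5 and Hoxc6, all of them higher at D3, against 5.45% of all probes higher. None passed adjustment over all probes. Leaving out 1 mouse at a time gave 2 to 10 such members, with 2 without mouse 20, 3 without mouse 17, 4 without mouse 2 or mouse 3 and 5 without mouse 1, median centring gave 0 and the array column as a term gave 3. Under median centring 20 of 22 members were above 0 with a median of 0.40, and the median of all probes tested was 0.19. The members are neighbours that share tissue and slides, so their common direction is not a set of independent observations. At D1, 20 of 22 were above 0 with a median of 0.27, and at D2 15 of 22 with a median of 0.04, against 50.2% and 47.1% of all probes, so D2 was nearest to D0 in this median.

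Hoxc4 had the smallest P value in forestomach at D3. It was 1.29, 0.89, 0.27, 0.54 and 1.65 in mice 1 to 5 of D0, 1.98, 1.35, 0.94, 1.70 and 2.11 in mice 6 to 10 of D1, 1.82, 0.56, 1.61 and 1.45 in mice 11, 12, 13 and 15 of D2, and 1.55, 2.33, 1.94, 1.34 and 2.37 in mice 16 to 20 of D3. The D3 mice overlapped with the highest D0 mouse, and 3 of 5 lay above it. The log2 difference was 0.98 (SE 0.30, limma adjusted P 0.264). Hoxb4 was -0.69 to -0.12 at D0, -0.01 to 0.47 at D1, -0.48 to 0.44 at D2 and -0.32 to 0.77 at D3. All 5 D1 mice were above all 5 D0 mice, which held for 0.353% of all probes, and the D3 mice overlapped with D0. Its D3 difference was 0.55 (SE 0.20, adjusted P 0.342) and its D1 difference 0.50 (SE 0.20, adjusted P 1.0). Hoxb2 gave 0.46 at D3 (SE 0.17, adjusted P 0.366).

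Within slides the forestomach shift had the same sign and differed in size. The median of the 22 members at D3 minus D0 was 0.41 on slide 1 (2 arrays against 1, 16 above 0), 0.14 on slide 2 (1 against 2, 14 above 0) and 0.50 on slide 3 (2 against 2, 19 above 0). The 8 smooth muscle markers had a mean log2 ratio of 3.53 to 5.00 at D0 (mean 4.13) and 4.39 to 5.52 at D3 (mean 4.84). The 8 fibroblast markers were at -0.02 to 1.19 at D0 (mean 0.64) and 0.62 to 1.26 at D3 (mean 1.00). At D1 and D2 the means were 4.66 and 4.39 for smooth muscle and 0.98 and 0.66 for fibroblast markers. The 9 glandular stomach markers ranged from 0.58 to 6.99 at D0 (mean 4.10), 0.30 to 6.39 at D1 (mean 2.87), 5.48 to 7.07 at D2 (mean 6.01) and 0.53 to 7.06 at D3 (mean 2.61). The glandular means at D1 and D3 were below that at D0 and the mean at D2 above it, and the Hox medians against D0 were 0.27, 0.04 and 0.45 at D1, D2 and D3, lowest where the glandular mean was highest. The part of these cell types in the Hox values was not tested.

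**Figure D4:**
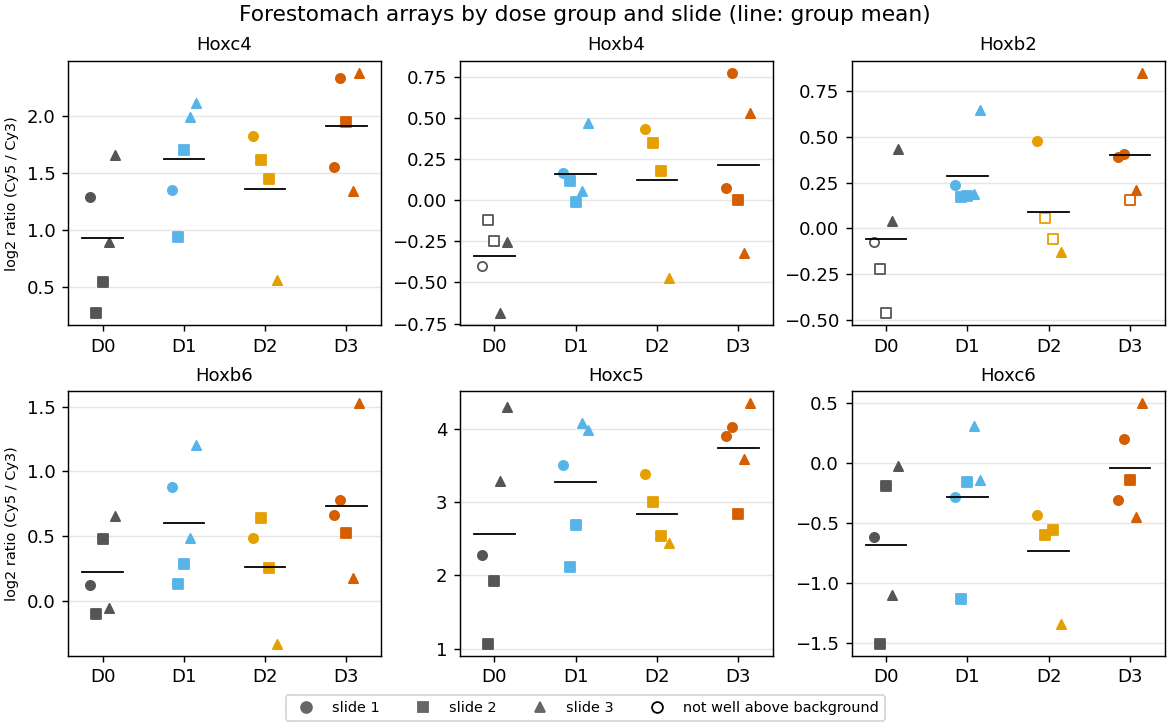
Log2 ratio of 6 Hox genes on the 19 forestomach arrays by dose group (horizontal axis), with the slide as the symbol, open symbols for Cy5 not well above background and a line at each group's mean. The D3 mean lies above the D0 mean in each panel, by 0.98 for Hoxc4 and 0.55 for Hoxb4, and the D3 and D0 arrays overlap in each.

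In lung, D3 minus D0 was above 0 for 7 of 17 members, against 42.5% of all probes, with a median of -0.04. Without the lungs of mice 17 and 19 it was above 0 for 11 of 17, against 50.6% of all probes, with a median of 0.10. The 3 members with an unadjusted P of at most 0.05 were Hoxc5 (0.59, SE 0.21, adjusted P 0.203), Hoxc4 (1.39, SE 0.51, adjusted P 0.219) and Hoxa3 (0.23, SE 0.09, adjusted P 0.229). Hoxc4 was -2.98, -4.25, -3.67, -3.62 and -3.84 in mice 1 to 5 of D0 and -3.47, -0.89, -2.75, -0.39 and -3.91 in mice 16 to 20 of D3. The 2 highest values belong to mice 17 and 19, and the other 3 D3 lungs overlapped with D0. Without these 2 lungs the difference was 0.29 for Hoxc4 and 0.14 for Hoxc5 (adjusted P 0.759 and 0.717), and that of Hoxa3 was 0.35 (adjusted P 0.215). The 4 members with an unadjusted P of at most 0.05 were then all higher, among them Hoxa2, Hoxa3 and Hoxb3, against 9.88% of all probes. Leaving out 1 mouse at a time gave 2 to 6 such members, with 5 without mouse 5 and 6 without mouse 18. In the lung trend, given as the change over the 3 dose steps from D0 to D3, the 4 members were Hoxa3 (0.22), Hoxb6 (-0.32), Hoxc4 (1.36) and Hoxc5 (0.60). Without mice 17 and 19, Hoxa3 was at 0.32, Hoxb6 at -0.25, Hoxc4 at 0.31 and Hoxc5 at 0.20, and of these 4 only Hoxa3 kept an unadjusted P of at most 0.05 (adjusted P 0.135). The count was again 4 of 17, against 11.6% of all probes, and all 4 were higher.

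Hoxa3, measured on every lung array, was 0.25, 0.54, 0.60, 0.55 and 0.40 in mice 1 to 5 of D0 and 0.77, 0.56, 0.81, 0.48 and 0.86 in mice 16 to 20 of D3. The 2 lowest D3 values were those of mice 17 and 19, and they overlapped with D0, whereas the other 3 lay above every D0 lung. Hoxb3 was the member with the smallest P at D1 (0.21, SE 0.08, adjusted P 0.828) and at D2 (0.37, SE 0.10, adjusted P 0.569), and at both doses every dosed lung lay above every D0 lung, which held for 0.703% and 2.4% of all probes. In lung every D0 array lay in array column 1 and every D1 array in column 2, whereas D2 and D3 arrays lay in columns 3 and 4, so array column and exposure cannot be told apart there.

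The lungs of mice 17 and 19 differed from the other 16 in which Hox genes they held. Both lay above all 16 for 5 members, of which Hoxc4, Hoxc5, Hoxc6 and Hoxd8 were above background in both, and below all 16 for 8 members, 7 of them above background (Hoxa5, Hoxa6, Hoxa9, Hoxb4, Hoxb5, Hoxb7 and Hoxc13). These arrays were singled out by their markers, so no test was made. How many of all probes lay outside the other 16 lungs in both mice was not counted. The counts of 5 and 8 members therefore describe these arrays and cannot be set against a background share. Hoxc6 was -3.32 in mouse 17 and -3.20 in mouse 19, against -6.04 to -5.51 in the other 16, none of which was above background. Hoxd8 was -1.44 and -1.03 against -2.75 to -2.19, again with none of the 16 above background. Hoxd9 was also above background in both and in none of the 16, although its ratios (-1.27 to -0.68) overlapped with those of the 16 (-1.69 to -1.14). Hoxc5 was 0.52 and 0.70 against -0.80 to -0.21.

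Among the genes that were lower, Hoxb5 was 1.43 in mouse 17 and 1.41 in mouse 19 against 1.59 to 2.61 in the other lungs. Hoxb4 was 0.45 and 0.35 against 0.61 to 1.16, and Hoxb7 was -2.42 and -2.35 against -2.16 to -1.19. Hoxb2, Hoxb3 and Hoxb6 did not lie below the other lungs in both mice, and Hoxc8 was not above background in either. The smooth muscle mean was 1.95 to 2.26 in these lungs against 0.66 to 1.23, the fibroblast mean 1.17 to 1.46 against -0.15 to 0.74, and the adipocyte mean 4.12 to 4.16 against 0.56 to 3.92. The alveolar type 2 mean, 5.63 to 5.79, reached just below the other lungs' range of 5.65 to 6.09. The part of these cell types in the Hox values was not tested.

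**Figure D5:**
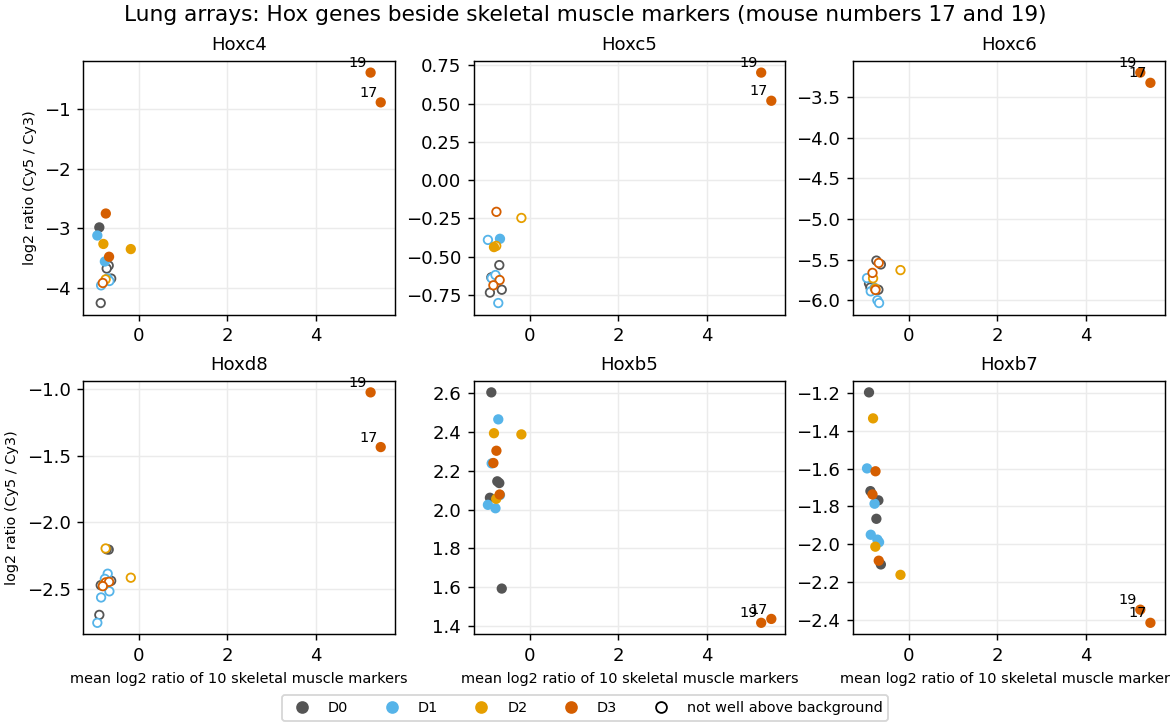
Log2 ratio of 6 Hox genes (vertical axis) against the mean log2 ratio of 10 skeletal muscle markers (horizontal axis) on the 18 lung arrays, coloured by dose group; open circles are arrays with Cy5 not well above background. Mice 17 and 19, with marker means of 5.24 to 5.46, lie above the other 16 lungs for Hoxc4, Hoxc5, Hoxc6 and Hoxd8 and below them for Hoxb5 and Hoxb7.

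In liver, 8 members were tested and D3 minus D0 lay between -0.11 and 0.10, with 7 of 8 above 0 against 47% of all probes, or 1 of 8 with normexp background correction. Hoxb5 was -0.26, -0.42, -0.35, -0.30 and -0.37 in mice 1 to 5 of D0 and -0.52, -0.15, -0.49, -0.56 and -0.52 in mice 16 to 20 of D3. Mouse 17 was the highest D3 liver, the other 4 D3 livers lay below all D0 livers, and the difference was -0.11 (adjusted P 1.0). At D2, Hoxc13 (0.23, SE 0.07) and Hoxb6 (0.23, SE 0.09) had an unadjusted P of at most 0.05, 2 of 8 members against 3.8% of all probes, and both had an adjusted P of 0.998. Most liver signals of these genes lay close to background, with a highest Cy5 signal of 148 units for Hoxa7, which limits the size of change that could be seen.

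The D3 effect itself was compared between tissues in a fit of all 56 arrays. No member was called by limma in lung against liver (0% of all probes called), forestomach against liver (0.0777%) or lung against forestomach (0.707%). By unadjusted P (limit 0.05) the members were 1 of 17, 5 of 22 and 7 of 22, against 5.25%, 9.94% and 12.9% of all probes. Leaving out 1 mouse at a time gave 0 to 1, 1 to 8 and 4 to 10. Forestomach against liver had 1 without mouse 3 or mouse 20, 2 without mouse 4, 3 without mouse 17 and 8 without mouse 5, and lung against forestomach had 4 without mouse 2, 17 or 20. The 1 member in lung against liver was lost without mouse 2, 4, 17 or 19. Under median centring all 3 counts were 0. The 7 in lung against forestomach, Hoxa7, Hoxb2, Hoxb4, Hoxb5, Hoxb6, Hoxb7 and Hoxb8, were all lower, from -0.60 to -0.80 on the log2 scale, against 7.71% of all probes lower. Hoxb8 among them was above background on 0 of 18 lungs. Without the lungs of mice 17 and 19 the differences were -0.70 for Hoxa7, -0.53 for Hoxb2, -0.44 for Hoxb4, -0.35 for Hoxb5, -0.76 for Hoxb6, -0.57 for Hoxb7 and -0.56 for Hoxb8. Of these, Hoxb2, Hoxb4, Hoxb6 and Hoxb8 kept an unadjusted P of at most 0.05, and with Hoxc5 5 of 22 had one, against 8.94% of all probes. In lung against liver 0 of 17 then did, against 2.5%. With all lungs the smallest adjusted P was 0.0989, for Hoxb2 (-0.64, SE 0.20), and without those 2 lungs that of Hoxb2 was 0.382. Without mouse 5, Hoxb2 (-0.87, adjusted P 0.0135) and Hoxb6 (-1.01, adjusted P 0.0397) were called, with 1.33% of all probes.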

How the data were processed

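The 39 Hox genes, the other gene lists, the marker lists and the tests were chosen with earlier results of these data known. Median spot and background intensity of both channels, with quality flags, came from deposited scanner output (Feature Extraction 10.7.3.1, array annotation mm9). The authors also deposited log2 ratios of Cy5 over Cy3, normalized by LOWESS on signals from which no background was subtracted, and these were used here. They correlated at 0.977 to 0.998 with ratios recomputed from the intensities. No dyes were swapped. RefSeq accessions named 26413 of 55681 probes (assembly GRCm38.p6). A probe was tested where Cy5 was well above background on at least 3 arrays of the tissue, or of either tissue in a contrast between tissues, by limma 3.58.1 (R 4.3.3, lmFit and eBayes, two-sided) with Benjamini-Hochberg adjustment over all probes tested and a fold limit of 1.5. The methods' Fs statistic, other scalings, filters, the mouse as a block, slide, array column and each mouse left out were alternatives. Members followed through every alternative were, per tissue contrast, the 4 largest calls that were above background on every array of the higher D0 group and, at D3, the 3 smallest P values in lung and in forestomach and 2 in liver. The genes named from each other list were among the 3 with the largest change in a contrast, and not every such gene is named. Single values of some genes are not reported here. A fold written as at least was computed on Cy5 signal, after loess within arrays and Aquantile between them, against the higher of the dim probe's value and the lowest signal well above background on each array. The same mice gave the tissues, so mouse number pairs them. Deviations from group means of the same mouse correlated at a median of 0.12 between lung and liver, 0.06 between forestomach and liver and 0.02 between lung and forestomach. Arrays of a group correlated at 0.982 or less, so none was a copy. The tests were tried on simulated data.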

Additional observations from a re-analysis of the deposited data

Results flagged for a closer look

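In groups of 4 to 5 arrays, the highest or lowest array of a Hox gene was compared with its nearest neighbour, as the gap divided by the whole range of the group. Of 83 groups tried, 9 exceeded Dixon's limit, where chance would give about 4.2. In lung D0, mouse 2 was high for Hoxa5 (2.44 against 1.78 next, ratio 0.885). In forestomach D1, mouse 10 was high for Hoxa3 (1.04 against 0.00, ratio 0.823), Hoxa7 (1.36 against 0.57, ratio 0.780) and Hoxb2 (0.65 against 0.24, ratio 0.869). In forestomach D2, mouse 12 was low for Hoxa7 (-1.0 against 0.59, ratio 0.965) and mouse 11 was high for Hoxa5 (0.40 against 0.09, ratio 0.877). In liver, mouse 10 of D1 was low for Hoxb4 (-1.27 against -1.04, ratio 0.844), mouse 20 of D3 was low for Hoxa7 (-2.07 against -1.67, ratio 0.850) and mouse 17 of D3 was high for Hoxb5 (-0.15 against -0.49, ratio 0.835).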

How the results depend on the processing

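Counts of Hox genes called between tissues moved by over 1.5 times with scaling and filter. Forestomach against liver gave 13 calls, 4 under median centring and 6 with the strict filter, under which 6 members were tested. Without a filter on dim probes, lung against liver gave 19 of 39 in place of 11, and lung against forestomach gave 23 in place of 15, and these add members at background. Forestomach slide 3 alone, chosen after seeing the data, gave 12 calls against liver and 10 against lung. Leaving out each mouse gave 10 to 11, 11 to 14 and 12 to 15 calls in lung against liver, forestomach against liver and lung against forestomach. It gave 0 in every dose comparison and 0 to 2 for the D3 effect in lung against forestomach, with 2 without mouse 5. Of single genes, Hoxa7 in forestomach against liver was 0.99 (adjusted P 0.151) under median centring, and in liver at D3, Hoxa9 turned to -0.0023 with the array column as a term; the cause was not tested. Pairing the tissues by mouse as a replicate block gave 11, 13 and 15 calls between tissues and 0, 0 and 0 for the D3 effect, and changed no call count. The other alternatives left 332 counts equal to the main count or within 1.5 times of it, with higher and lower calls added together. Direction was not part of that comparison of counts, and lung against forestomach under median centring kept its total although its split was reversed. They left 326 single values with their direction and on their side of the limits. The array column could not be fitted for lung doses or for D1 in liver and forestomach, and the second probe of Hoxa9, never above background, gave no value. Signal over background limits the dim forestomach slides and most liver values, so small changes there were not measurable.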

Other observations

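Genes of the other lists also set the lungs of mice 17 and 19 apart. Pitx1, a homeodomain factor of hindlimb and oral epithelium, was 4.29 in mouse 17 and 4.65 in mouse 19 against -0.64 to -0.17 in the other 16 lungs, none of which was above background. Isl1 was 1.26 and 1.31 against -0.25 to -0.00, and Nkx6-1 was 0.73 and 0.99 against -0.88 to -0.58, again with 0 of the 16 above background. Six2 was -0.73 and -0.75 against -1.60 to -1.04, also with 0 of the 16 above background. Crabp2 was 1.94 and 3.02 against -2.27 to -1.86. Pbx3 (-0.08 and -0.14 against 0.09 to 0.44) and Ezh1 (0.99 and 0.99 against 1.16 to 1.37) were below all other lungs. These genes were singled out after their values were seen, and no test was made.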
